A study of Mus musculus with 12 samples.

Results

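The 10 genes described here carry cholesterol and phospholipid between brain cells or handle cholesterol inside them. They were taken by symbol from the 52459 genes of the count tables: the lipid carriers *Apoe*, *Apoc1*, *Apod* and *Clu*, the efflux transporters *Abca1* and *Abcg1*, the sterol-modifying enzymes *Lcat*, *Soat1* and *Ch25h*, and the lipid droplet protein *Plin2*. All 10 were in the tables and all 10 passed the filter on low counts in both tissues. Poly(A) RNA was sequenced from cerebellum (Cb) and from forebrain plus midbrain (F/M) of male mice aged 4 months. The T mice were homozygous for a gene-targeted disruption of *Tpp1* (*Tpp1*-/-), which models classic late infantile neuronal ceroid lipofuscinosis (cLINCL), a lysosomal storage disease in which the peptidase TPP1 is missing. The N mice were wild-type brothers from the same line, which is kept by crossing heterozygotes. There were 3 libraries in each of the groups F/M-N, F/M-T, Cb-N and Cb-T. The disruption is present in every cell of the T mice, and each sample is whole tissue, so fewer or more cells of a type and less or more RNA per cell cannot be told apart. A gene was called upregulated or downregulated at FDR below 0.1 and a change of at least 1.5-fold in edgeR's quasi-likelihood test, and levels are CPM, counts scaled to library size with TMM factors.

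Brain cholesterol is made locally, because lipoproteins of the blood do not cross the blood-brain barrier. Astrocytes, and microglia in disease, export it through ABCA1 and ABCG1 onto APOE, the main apolipoprotein of the brain, and LCAT esterifies the cholesterol on the particle. Inside cells SOAT1 forms cholesteryl esters, which are stored in droplets coated by PLIN2, and CH25H makes 25-hydroxycholesterol, an oxysterol that activates the liver X receptors (LXR). LXR in turn raise transcription of *Abca1*, *Abcg1*, *Apoe* and *Apoc1*. Cholesterol taken up with lipoproteins or myelin passes through the lysosome, the organelle affected in cLINCL.

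The disruption and the tissue were checked first. *Tpp1* stood at 87.7 to 94.3 CPM for F/M-N and 21.8 to 23.9 CPM for F/M-T, and at 112 to 114 CPM for Cb-N and 28.0 to 31.0 CPM for Cb-T, so all 12 libraries matched their genotype label. Total counts ran from 21428379 to 24458189 per library, where 3 counts equal 0.123 to 0.140 CPM before TMM scaling. The replicates of each group differed by more than sampling noise (chi-square per degree of freedom 1.27 to 3.37), so none was a repeat deposit. The tissue label was met in part: the 3 Cb-T libraries stood apart from Cb-N in markers of brain regions that border the cerebellum. *Hox* genes, which in the brain mark the hindbrain below the cerebellum, summed to 353 to 369 counts over the 39 genes in Cb-T, against 11 to 16 in Cb-N and 4 to 8 in both F/M groups. A list of 7 midbrain and thalamus genes summed to 155 to 163 CPM for Cb-T and 28.3 to 31.0 CPM for Cb-N. Most of both sums came from its member *Slc17a6*, with means of 21.2 CPM (Cb-N) and 102 CPM (Cb-T). *Slc17a6* is a glutamate transporter of neurons in those regions but not only there. A list of 10 cerebellar neuron genes summed to 12830 to 13140 CPM for Cb-N and 10810 to 10940 CPM for Cb-T, and 6 telencephalon genes stayed low in both (8.83 to 9.54 and 6.87 to 8.08 CPM). In the Cb comparison, *Tpp1* deficiency and the tissue that was taken therefore cannot be told apart for any gene, and no Cb value without the libraries concerned could be had, since all 3 Cb-T libraries share the pattern. In F/M the *Hox* genes were near 0 in both groups, the midbrain and thalamus list summed to 199 to 202 CPM for F/M-N and 178 to 183 CPM for F/M-T, and the telencephalon list to 340 to 348 and 297 to 301 CPM. The region lists were written after these values had been seen.

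**Figure D1:**
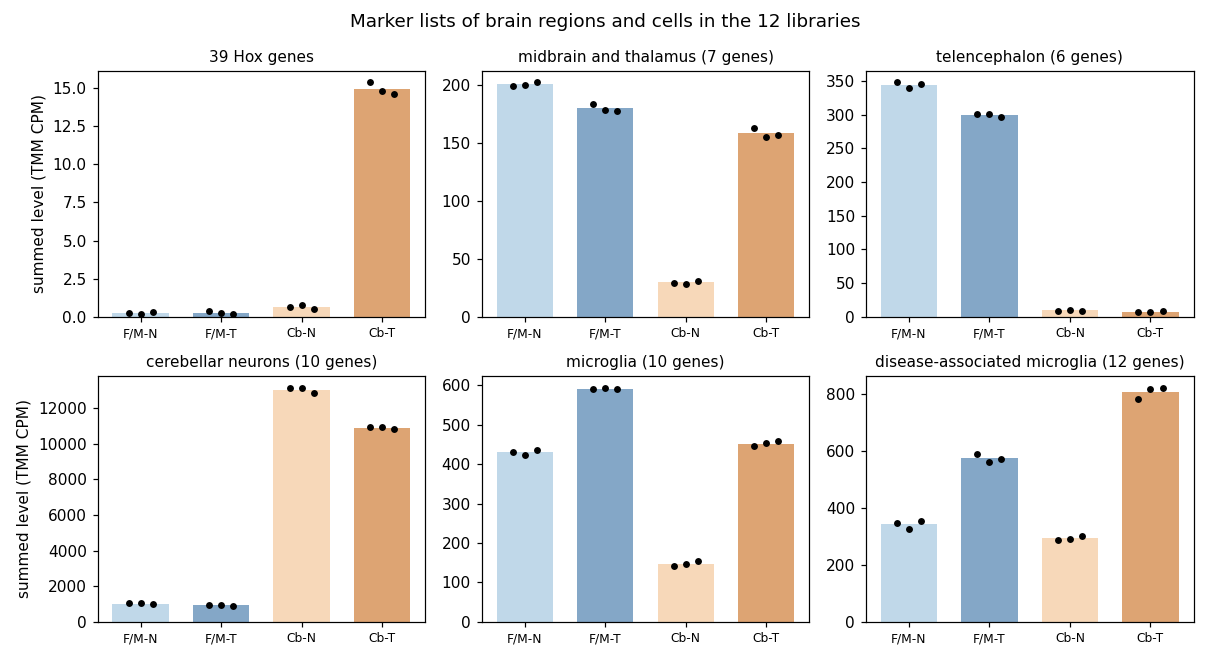
Summed level in CPM (vertical axes, from 0) of 6 marker lists in the 4 groups; points are the 3 libraries of a group and bars their mean. The *Hox* and midbrain lists are high in all 3 Cb-T libraries and low in Cb-N, the cerebellar neuron list is lower in Cb-T than in Cb-N, and both microglial lists are higher in T than in N in either tissue.

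Cell markers moved as well. The counts of upregulated genes given here stand against 8.54% of all tested genes in Cb and 2.63% in F/M. A count of 1 of 10 in Cb is near that share. The 10 microglia genes summed to 143 to 154 CPM for Cb-N and 446 to 458 CPM for Cb-T, with 8 of 10 upregulated, and to 423 to 436 CPM for F/M-N and 591 to 594 CPM for F/M-T, with 4 of 10 upregulated. The 12 genes of disease-associated microglia, the state in which microglia take on lipid handling, summed to 288 to 299 and 782 to 820 CPM in Cb (12 of 12 upregulated) and to 326 to 353 and 560 to 588 CPM in F/M (9 of 12). The 10 astrocyte genes summed to 6344 to 6377 and 8190 to 8218 CPM in Cb (2 of 10 upregulated) and to 5529 to 5826 and 6405 to 6784 CPM in F/M (1 of 10). The 10 oligodendrocyte genes summed to 4768 to 4878 and 6230 to 6292 CPM in Cb (1 of 10) and to 6117 to 6285 and 6070 to 6234 CPM in F/M (0 of 10). The 10 choroid plexus genes, an epithelium that also makes lipid carriers, summed to 2310 to 2456 and 2220 to 2359 CPM in Cb (1 of 10) and to 634 to 676 and 863 to 908 CPM in F/M (0 of 10). Most of these sums was 1 gene, *Ttr*, with means of 2107 (Cb-N), 2049 (Cb-T), 555 (F/M-N) and 774 CPM (F/M-T). The median log2 fold change of the choroid plexus list was -0.02 in Cb and 0.19 in F/M. Every gene of these lists had counts in every group. The part of these cells in the results for the 10 lipid genes was not tested.

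Of the 10 lipid genes, 4 were upregulated in Cb-T against Cb-N: *Ch25h* (7.82-fold), *Apoc1* (2.72-fold), *Apoe* (1.95-fold) and *Clu* (1.66-fold). Over all tested genes 8.54% were upregulated and 2.66% downregulated in Cb, and none of the 10 was downregulated. In F/M-T against F/M-N only *Apoc1* of the 10 was upregulated (2.22-fold), where the share over all tested genes was 2.63% upregulated and 0.858% downregulated, and none of the 10 was downregulated. Without the fold limit, 9 of 10 were higher in Cb-T at FDR below 0.1 (29.8% of all tested genes) and 5 of 10 in F/M-T (12.8%): *Apoe*, *Apoc1*, *Apod*, *Clu* and *Abca1*. All 3 T libraries lay above all 3 N libraries for 9 of 10 genes in Cb (27.7% of all tested genes), *Abcg1* being the exception, and for 6 of 10 in F/M (13.3%), which adds *Lcat* to those 5. Of the 4 called in Cb, 3 were carriers, while the transporters, *Lcat* and *Soat1* stayed within 1.5-fold in either tissue. The Cb calls compare libraries that also differ in the *Hox* and midbrain markers above. The F/M groups differed as well, F/M-T lying below F/M-N without overlap in the midbrain and thalamus list and in the telencephalon list, and the part of this in the F/M results was not tested.

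**Figure D2:**
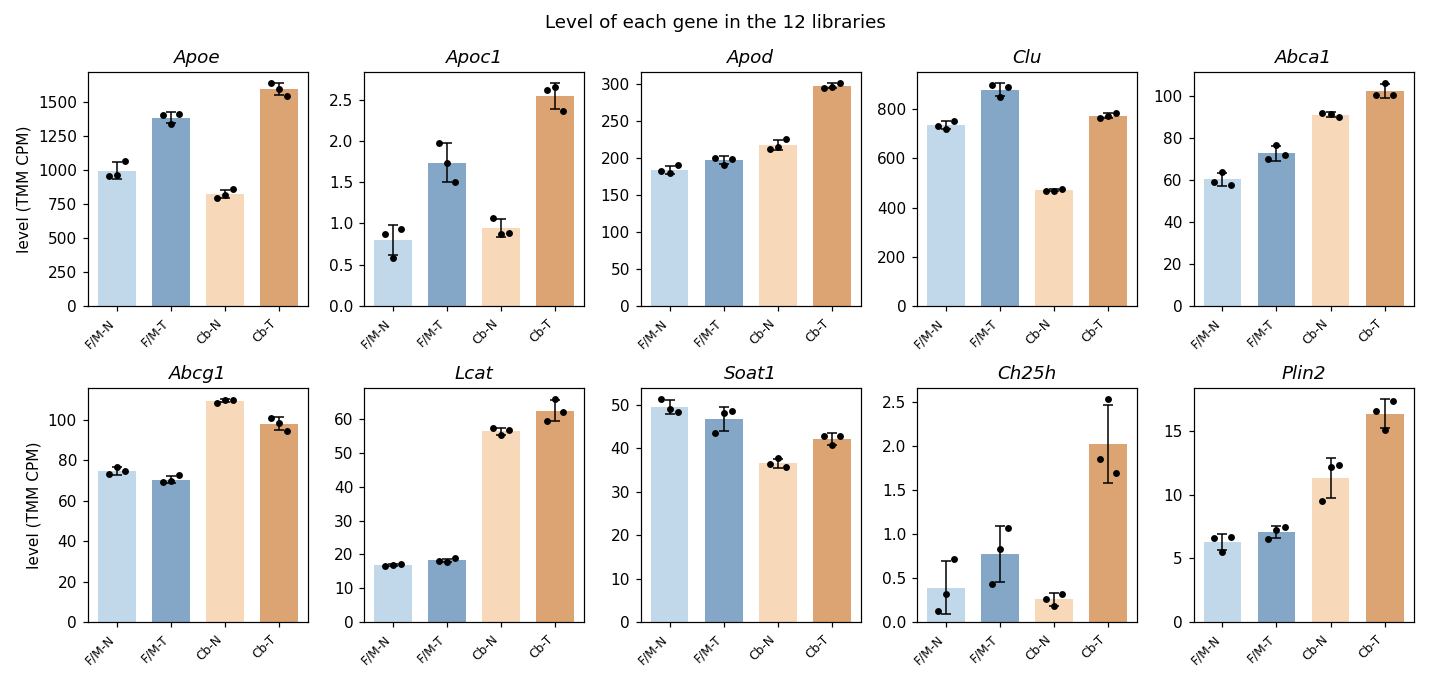
Level of each of the 10 genes in CPM (vertical axes, each from 0) in the 4 groups; points are the 3 libraries, bars the mean and whiskers the SD. *Apoe*, *Apoc1* and *Ch25h* are highest in Cb-T, *Clu* is highest in F/M-T, *Lcat* differs by tissue far more than by genotype, and *Abcg1* is lower in Cb-T than in Cb-N.

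The promoters of 5 of the genes are shown. Of these, *Apoe* and *Ch25h* were called in Cb, and *Abca1* and *Apoe* are textbook LXR targets. The windows of *Abca1*, *Lcat* and *Plin2* are the ones in which the search described here found a match. Those of *Apod* and *Soat1*, without a match, are not shown. Of the 10 genes, 7 had at least 1 window in RefSeq (GRCm38.p6), which runs from 250 bases before to 50 after the annotated start; *Clu*, *Abcg1* and *Apoc1* had none. Both strands were searched for the LXR element, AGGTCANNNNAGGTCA, with up to 3 mismatches in its 12 fixed bases, and for CACGTG, the core of the element bound by TFEB, a regulator of lysosomal genes. The windows are printed 5′ to 3′ on the gene's own strand in lower case, with matches in capitals and the annotated start counted as base 1. They lie at chr7:19699139-19699438 (*Apoe*), chr19:34475099-34475398 (*Ch25h*), chr4:53159846-53160145 (*Abca1*), chr8:105943353-105943652 (*Lcat*) and chr4:86670010-86670309 (*Plin2*), all on the minus strand. *Apoe* had 3 windows, and the one shown is that of the 5′ end of the gene.
Apoe: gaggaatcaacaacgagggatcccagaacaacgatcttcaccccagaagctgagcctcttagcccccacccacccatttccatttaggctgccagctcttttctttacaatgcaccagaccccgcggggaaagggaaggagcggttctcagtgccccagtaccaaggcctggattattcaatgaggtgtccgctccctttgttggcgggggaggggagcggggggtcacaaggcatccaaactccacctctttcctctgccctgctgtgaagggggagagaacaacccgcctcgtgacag
Ch25h: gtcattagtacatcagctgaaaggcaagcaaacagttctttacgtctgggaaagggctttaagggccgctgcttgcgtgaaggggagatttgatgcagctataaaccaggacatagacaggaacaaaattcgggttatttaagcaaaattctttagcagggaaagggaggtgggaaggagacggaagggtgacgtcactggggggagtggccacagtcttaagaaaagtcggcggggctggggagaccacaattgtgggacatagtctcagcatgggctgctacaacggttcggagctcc
Abca1: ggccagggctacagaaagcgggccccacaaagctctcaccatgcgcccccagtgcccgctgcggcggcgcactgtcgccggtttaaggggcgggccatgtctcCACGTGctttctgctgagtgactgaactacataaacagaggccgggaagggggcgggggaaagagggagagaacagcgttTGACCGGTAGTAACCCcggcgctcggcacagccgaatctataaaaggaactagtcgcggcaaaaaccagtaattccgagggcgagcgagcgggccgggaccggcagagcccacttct
Lcat: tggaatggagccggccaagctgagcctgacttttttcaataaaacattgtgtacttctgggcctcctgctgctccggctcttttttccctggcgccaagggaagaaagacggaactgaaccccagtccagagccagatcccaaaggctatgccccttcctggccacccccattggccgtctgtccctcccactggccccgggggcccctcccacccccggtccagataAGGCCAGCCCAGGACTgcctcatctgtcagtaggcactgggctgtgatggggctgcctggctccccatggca
Plin2: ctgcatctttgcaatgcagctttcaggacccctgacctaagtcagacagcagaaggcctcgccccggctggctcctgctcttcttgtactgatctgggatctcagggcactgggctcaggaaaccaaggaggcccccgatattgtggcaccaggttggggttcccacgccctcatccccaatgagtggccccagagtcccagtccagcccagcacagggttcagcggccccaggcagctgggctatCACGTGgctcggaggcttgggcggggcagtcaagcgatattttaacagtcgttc
The *Abca1* window held CACGTG at bases -147 to -142 and, at bases -67 to -52 on the opposite strand, a match to the LXR element with 3 mismatches. The *Lcat* window held such a match at bases -22 to -7, and the *Plin2* window held CACGTG across the start, from base -4 to 2. Neither motif was found in the windows of *Apoe* (all 3), *Ch25h*, *Apod* and *Soat1*, which says only that these letters are not there. Among all 32851 windows, 21.9% matched the LXR element with up to 3 mismatches, 3.02% with up to 2 and 7.15% held CACGTG, so matches with 3 mismatches are common.

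*Apoe*, on chromosome 7 (19696109 to 19699188, minus strand), had the highest level per kb of exon of the 10 in every group. The 3 F/M-N libraries had 958, 961 and 1070 CPM, against 1407, 1344 and 1413 CPM for F/M-T. In Cb it was 798, 820 and 860 CPM for Cb-N and 1642, 1601 and 1550 CPM for Cb-T. The groups did not overlap, and *Apoe*, which was lower in Cb-N than in F/M-N, was higher in Cb-T than in F/M-T. The log2 fold change in Cb was 0.97 (SE 0.024, adjusted p = 2.8e-32). In F/M it was 0.51 (SE 0.036, adjusted p = 2.2e-09), a 1.43-fold rise that stayed under the fold limit.

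*Apoc1*, a small exchangeable apolipoprotein, lies 3448 bases from *Apoe* on the same strand of chromosome 7 (19689481 to 19692660), and was read at a far lower depth. It had 20, 13 and 22 counts in F/M-N, 45, 42 and 35 in F/M-T, 24, 19 and 19 in Cb-N and 62, 66 and 57 in Cb-T. In CPM these are means of 0.794 ± 0.184 (SD, n = 3), 1.74 ± 0.236, 0.939 ± 0.109 and 2.54 ± 0.160. T and N libraries did not overlap in either tissue, while Cb-N and F/M-N did. The log2 fold change was 1.44 in Cb (SE 0.21, adjusted p = 1.5e-07) and 1.15 in F/M (SE 0.24, adjusted p = 0.0019). *Apoc1* was the only one of the 10 to be upregulated in both tissues, and the change in Cb exceeded that in F/M by 0.32 on the log2 scale with an interval from -0.34 to 0.97 (adjusted p = 0.55).

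*Clu*, which encodes clusterin, an apolipoprotein and extracellular chaperone made by astrocytes, lies on chromosome 14 (65968483 to 65981547, plus strand). Its level was 733, 720 and 754 CPM for F/M-N, 900, 850 and 891 CPM for F/M-T, 469, 466 and 476 CPM for Cb-N and 764, 772 and 785 CPM for Cb-T. The Cb-N libraries were the lowest by a wide margin, and the Cb-T libraries lay just above F/M-N and below F/M-T. The log2 fold change was 0.73 in Cb (SE 0.022, adjusted p = 8.3e-29) and 0.29 in F/M (SE 0.029, adjusted p = 3.4e-07). *Apod*, a lipocalin that carries small lipids and is known from oligodendrocytes and perivascular cells, lies on chromosome 16 (31296192 to 31314808, minus strand). It stood at 180 to 189.6 CPM for F/M-N, 190.3 to 200 CPM for F/M-T, 211 to 225 CPM for Cb-N and 295 to 301 CPM for Cb-T, with no overlap between groups. Its log2 fold change was 0.47 (adjusted p = 3.6e-19, 1.38-fold) for Cb and 0.13 (adjusted p = 0.0089) for F/M, both under the fold limit. The oligodendrocyte list moved with *Apod* in Cb and not in F/M, as given above. The 10 fibroblast, 8 mural and 10 endothelial genes summed higher in T than in N in both tissues without overlap, with none called. The fibroblast sums were 279 to 292 (Cb-N), 317 to 322 (Cb-T), 207.5 to 222 (F/M-N) and 235 to 239 CPM (F/M-T). The mural sums were 301 to 309.5, 324 to 329, 282 to 291 and 292 to 297 CPM in that order. The part of these cells in the *Apod* change was not tested.

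The efflux transporters did not move together. *Abca1*, which loads cholesterol onto lipid-poor APOE, lies on chromosome 4 (53030787 to 53159895, minus strand) and was the only one of the 10 with a larger rise in F/M than in Cb. It had 59.2, 63.7 and 57.6 CPM for F/M-N, 69.7, 76.6 and 71.6 CPM for F/M-T, 91.8, 91.6 and 89.8 CPM for Cb-N and 101, 106 and 100.2 CPM for Cb-T, with no overlap between any groups. The log2 fold change was 0.31 in F/M (SE 0.045, adjusted p = 5.1e-05) and 0.18 in Cb (SE 0.033, adjusted p = 9.7e-06), and the difference of -0.11 had an interval from -0.22 to 0.01 (adjusted p = 0.20). *Abcg1*, which adds cholesterol to particles that already hold lipid, lies on chromosome 17 (31057675 to 31117988, plus strand). Its level was 109, 110 and 110 CPM for Cb-N and 101, 98.4 and 94.7 CPM for Cb-T, a log2 fold change of -0.15 (SE 0.032, adjusted p = 0.00019). In F/M the T libraries (69.0 to 72.5 CPM) also lay below the N libraries (73.1 to 76.9 CPM), but the log2 fold change of -0.05 did not pass the test (adjusted p = 0.36).

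*Ch25h* had the largest change of the 10 and the fewest reads. The gene is a single exon on chromosome 19 (34473778 to 34475164, minus strand). It had 6, 4 and 7 counts in Cb-N and 44, 63 and 41 in Cb-T, or 0.258 ± 0.0710 and 2.03 ± 0.445 CPM (SD, n = 3). In F/M it had 3, 7 and 17 counts in F/M-N and 10, 20 and 25 in F/M-T. The Cb groups were far apart, whereas F/M-N replicate 3 with 17 counts lay above F/M-T replicate 1. The log2 fold change was 2.97 in Cb (SE 0.32, adjusted p = 9.3e-11), rank 89 of 16382 tested genes. In F/M it was 1.02 (SE 0.44, adjusted p = 0.11), and 1.83 without F/M-N replicate 3 (adjusted p = 0.0085) or 1.29 without F/M-T replicate 1 (adjusted p = 0.064), in both of which it was called. *Gm26902*, a long noncoding RNA gene on the opposite strand, overlaps *Ch25h* by annotated gene position. The strand setting of the counting is not given in the sources used here, so reads in any shared exon bases are uncertain. The F/M-N libraries had 33 to 38 counts of *Gm26902* and the F/M-T libraries 24 to 34, whereas Cb-N had 0 to 6 and Cb-T 12 to 16.

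*Lcat*, on chromosome 8 (105939551 to 105943382, minus strand), differed by tissue far more than by genotype. It stood at 16.6 to 17.3 CPM for F/M-N and 17.7 to 18.8 CPM for F/M-T, and at 55.2 to 57.4 CPM for Cb-N and 59.5 to 65.9 CPM for Cb-T. Its log2 fold change was 0.16 (adjusted p = 0.00086) for Cb and 0.14 (adjusted p = 0.14) for F/M. *Soat1*, on chromosome 1 (156424525 to 156474331, minus strand), had 35.6 to 37.7 CPM for Cb-N and 40.7 to 42.9 CPM for Cb-T, a log2 fold change of 0.22 (adjusted p = 9.3e-05). In F/M its libraries overlapped, at 48.3 to 51.3 CPM for F/M-N and 43.6 to 48.5 CPM for F/M-T (adjusted p = 0.50 at a log2 fold change of -0.05). *Plin2*, on chromosome 4 (86648386 to 86670060, minus strand), had 9.49, 12.2 and 12.3 CPM for Cb-N and 16.6, 15.1 and 17.4 CPM for Cb-T. The rise of 1.46-fold (log2 0.55, SE 0.083, adjusted p = 4.0e-07) lay just under the fold limit. *Plin2* was called when Cb-N replicate 2, Cb-N replicate 3 or Cb-T replicate 2 was left out (log2 fold change 0.60 in each). The log2 fold change fell to 0.43 without Cb-N replicate 1, to 0.50 without Cb-T replicate 3 and to 0.54 without Cb-T replicate 1. In F/M its groups overlapped, at 5.54 to 6.69 CPM for F/M-N and 6.52 to 7.49 CPM for F/M-T (adjusted p = 0.19 at a log2 fold change of 0.20).

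**Figure D3:**
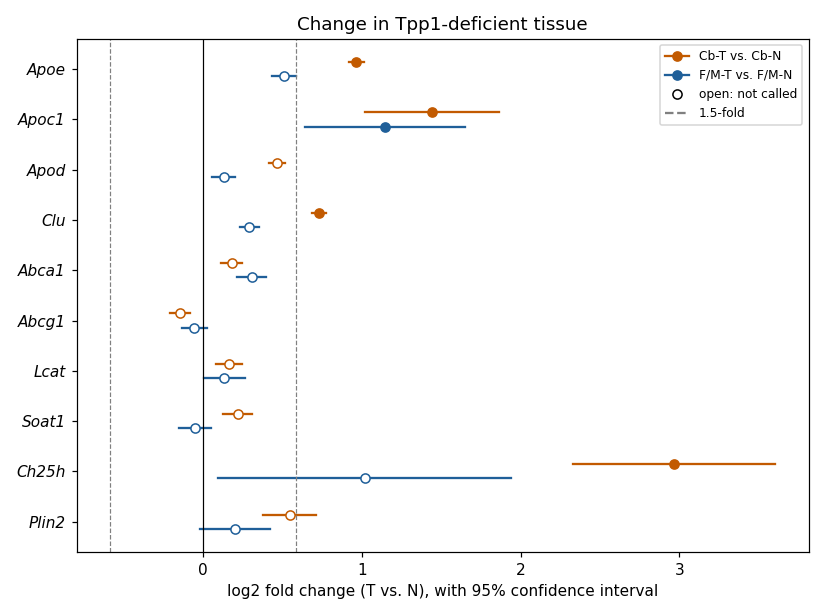
Log2 fold change of T against N (horizontal axis) for the 10 genes, with 95% confidence intervals, in Cb (orange) and F/M (blue); filled points were called and dashed lines mark 1.5-fold. *Ch25h* at 2.97 in Cb is the farthest to the right and has the widest intervals, *Apoc1* is the only gene filled in both tissues, and *Abcg1* is left of 0 in both.

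Whether the change differed between the tissues was tested by the tissue-by-genotype contrast over all 12 libraries. *Ch25h* was the only one of the 10 called, with a change 1.97 larger in Cb than in F/M on the log2 scale (SE 0.62, adjusted p = 0.021); over all tested genes 6.41% had a larger and 1.20% a smaller change in Cb by this rule. This call rests on 1 library: without F/M-N replicate 3 the difference was 1.16 (adjusted p = 0.29). The study's methods describe both tissues as taken from 3 mice of each genotype, so the tissues share mice, but the labels do not say which libraries came from 1 mouse, and the test treats the 12 libraries as independent. With the replicate number as a block within genotype, *Ch25h* was again the only gene of the 10 called (difference 1.72, adjusted p = 0.037 by limma-voom). Without the fold limit, 6 of the 10 had a larger change in Cb at FDR below 0.1, against 17.4% of all tested genes. They were *Apoe* (difference 0.47, adjusted p = 2.9e-09), *Clu* (0.46, adjusted p = 1.7e-11), *Apod* (0.36, adjusted p = 1.6e-07), *Soat1* (0.29, adjusted p = 0.0015), *Plin2* (0.36, adjusted p = 0.073) and *Ch25h*. *Plin2* no longer passed with DESeq2 (adjusted p = 0.157), with a mean count of at least 50 (0.111), or without F/M-N replicate 1 (0.166) or 3 (0.157), F/M-T replicate 1 (0.162), Cb-N replicate 1 (0.227) or Cb-T replicate 1 (0.177) or 3 (0.24). For *Abcg1* the difference was -0.07 (interval -0.17 to 0.03, adjusted p = 0.33) and for *Lcat* 0.05 (interval -0.11 to 0.20, adjusted p = 0.73). With a mean count of at least 50, *Abca1* (-0.15, adjusted p = 0.042) and *Abcg1* (-0.12, adjusted p = 0.070) had a lower log2 fold change in Cb than in F/M at FDR below 0.1. *Abca1* also passed without F/M-N replicate 2 (adjusted p = 0.063), Cb-T replicate 1 (0.089) or Cb-T replicate 3 (0.098). *Abcg1* also passed without Cb-T replicate 1 (-0.15, adjusted p = 0.044). The tissue taken for Cb-T, described above, enters each of these differences.

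The 10 genes also differed between the control tissues, again in a test that treats tissues from shared mice as independent. In Cb-N against F/M-N, *Lcat* (3.33-fold), *Plin2* (1.80-fold) and *Abca1* (1.51-fold) were higher, where 19.2% of all tested genes were, and *Clu* was lower (0.640-fold), where 23.2% were. The *Abca1* call lay at the fold limit and was lost without F/M-N replicate 3 (log2 0.57 in place of 0.60). *Abcg1* was 1.46-fold higher, under the limit, and *Apoe* 0.829-fold, *Soat1* 0.737-fold and *Apod* 1.18-fold passed at FDR below 0.1 alone. *Apoc1* (adjusted p = 0.42) and *Ch25h* (adjusted p = 0.32) overlapped between the control tissues, although without F/M-N replicate 1 *Ch25h* was called lower in Cb-N (log2 -1.01, adjusted p = 0.086). In Cb-T against F/M-T, *Lcat* (3.43-fold), *Ch25h* (2.59-fold), *Plin2* (2.31-fold) and *Apod* (1.51-fold) were higher, where 17.0% of all tested genes were, and none was lower, where 18.9% were. The *Apod* call was lost without F/M-T replicate 2 or Cb-T replicate 3 and with DESeq2, RLE size factors or a mean count of at least 50 (log2 0.54 at the lowest, in place of 0.60), and *Apoc1* was called without F/M-T replicate 1 (log2 0.65).

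Put in order, Cb-T was the highest group for 7 of the 10 genes, with all 3 of its libraries above the 9 others: *Apoe*, *Apoc1*, *Apod*, *Abca1*, *Lcat*, *Ch25h* and *Plin2*. The share of all tested genes with Cb-T highest in this way was not computed. Of all genes tested in Cb, 27.7% had every Cb-T library above every Cb-N library. The tissue taken for Cb-T, described above, enters this order too. F/M-T was highest for *Clu* and Cb-N for *Abcg1*. For *Soat1* the F/M groups were highest and overlapped each other. For *Apod*, *Abca1* and *Lcat* both Cb groups lay above both F/M groups, in the order Cb-T, Cb-N, F/M-T, F/M-N with no overlap. *Plin2* had that order too, but its F/M groups overlapped. For *Ch25h* F/M-T overlapped F/M-N, which overlapped Cb-N, while every Cb-N library lay below every F/M-T library.

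Levels of different genes were compared per kilobase of annotated exon. *Apoe* stood first in each group, from 386 CPM per kb in Cb-N to 747 in Cb-T, and *Clu* second, from 137 in Cb-N to 256 in F/M-T. *Apod* followed at 71.3 to 115 CPM per kb. *Lcat*, the esterifying enzyme of the particle, had 12.6 to 13.6 in F/M and 42.0 to 46.6 in Cb. The transporters *Abcg1* (9.66 to 14.99) and *Abca1* (5.81 to 9.87) were close to each other, and *Soat1* (3.73 to 5.06) and *Plin2* (1.79 to 4.65) were lower. *Apoc1*, beside *Apoe* in the genome, had 1.07 to 3.42 CPM per kb, and *Ch25h* had 0.186 to 1.46.

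**Figure D4:**
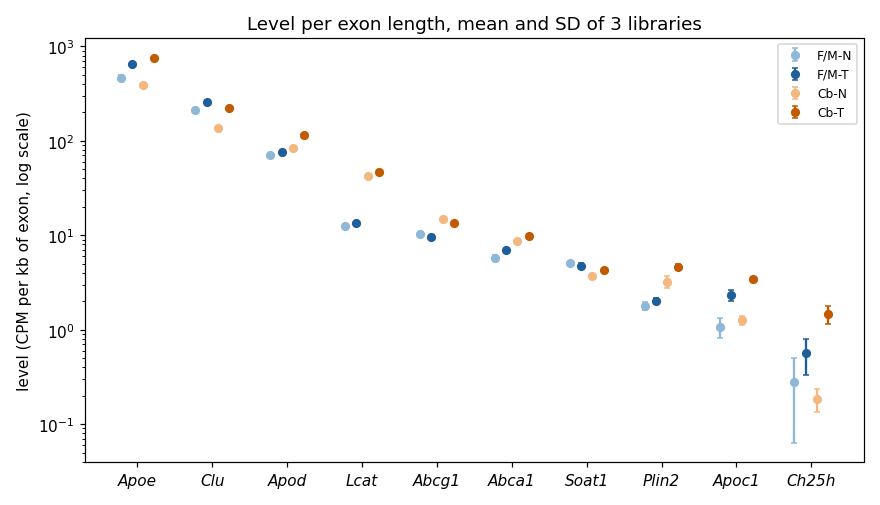
Level per kb of annotated exon in CPM (vertical axis, log scale) of the 10 genes in the 4 groups; points are means of 3 libraries and whiskers the SD. *Apoe* is first in every group and *Ch25h* last, from 747 CPM per kb for *Apoe* to 0.186 for *Ch25h*.

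The other genes of the pathway were counted by lists, for which the Cb values carry the same difference in tissue. The counts of each list stand against 8.54% of all tested genes upregulated in Cb and 2.63% in F/M. Of 24 other apolipoprotein genes 3 had enough counts to be tested in either tissue (*Apoa2*, *Apol8* and *Apol10b*), and 0 of 3 were called in Cb or F/M, with medians of -0.18 and 0.03. Among lipoprotein remodelling genes, 3 of 7 tested were upregulated in Cb and 0 of 9 in F/M (median log2 fold change 0.27 and 0.24). The 3 were *Lpl*, the lipase that frees fatty acids from lipoproteins (log2 fold change 4.02, adjusted p = 4.1e-29), *Pon3*, a lactonase of lipoprotein particles (1.23), and *Angptl4*, an inhibitor of that lipase (0.68). *Lpl* had a mean of 1.34 CPM for Cb-N and 21.6 CPM for Cb-T, below its 28.6 CPM for F/M-N and 37.2 CPM for F/M-T. For comparison, the median log2 fold change of all tested genes was 0.01 in both tissues.

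Among lipoprotein and scavenger receptors, 2 of 17 were upregulated in Cb (median 0.12) and 1 of 18 in F/M (median -0.05). *Trem2*, the microglial receptor that binds lipids and APOE, rose in both tissues, by a log2 fold change of 2.67 in Cb and 1.12 in F/M (adjusted p = 4.7e-27 and 1.2e-08). Its mean level was 3.40 CPM for Cb-N, 21.5 CPM for Cb-T, 10.5 CPM for F/M-N and 22.5 CPM for F/M-T. *Cd36*, a scavenger receptor for oxidised lipoproteins, rose in Cb (0.88, adjusted p = 0.0055) and had a log2 fold change of 0.01 in F/M (adjusted p = 0.97).

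Among the other lipid transporters, 2 of 18 were upregulated and 1 downregulated in Cb (median 0.00), and 1 of 21 was upregulated in F/M (median -0.05). *Npc2*, which hands cholesterol out of the lysosome, rose from 58.0 to 101 CPM in Cb (log2 fold change 0.81, adjusted p = 4.1e-23). In F/M *Npc2* went from 55.1 to 79.7 CPM, a log2 fold change of 0.56 that passed the FDR (adjusted p = 2.9e-09) but not the fold limit. *Abca7*, a lipid transporter of neurons and microglia, fell in Cb from 102 to 61.1 CPM (-0.72, adjusted p = 9.2e-22), and stood at 28.1 CPM in F/M-N. *Abcb4*, a phospholipid transporter, rose in Cb (0.60, adjusted p = 0.0068) from a mean of 1.68 to 2.54 CPM, and stood at 6.94 CPM in F/M-N. *Abcg3* rose in F/M (1.19, adjusted p = 0.018) from a mean of 7.67 counts to 17.7.

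Among 14 genes tested of the LXR and their partners, 1 was upregulated in Cb (median -0.16) and 0 in F/M (median -0.12), counts that do not stand apart from the 8.54% and 2.63% of all tested genes. That gene, *Rxrg*, a retinoid X receptor of neurons, rose from a mean of 0.348 CPM for Cb-N to 1.72 CPM for Cb-T (log2 fold change 2.30, adjusted p = 9.7e-09), and its level in F/M-N was 17.0 CPM. The receptors themselves, *Nr1h3* and *Nr1h2*, had log2 fold changes of -0.25 and -0.15 in Cb (adjusted p = 0.0074 and 0.0014) and of -0.03 and 0.03 in F/M (adjusted p = 0.92 and 0.72). Of 11 other LXR target genes tested, 1 was upregulated in Cb, which is *Lpl* again (median 0.15), and 0 in F/M (median 0.13), which is again no departure from those shares. *Srebf1*, the LXR target that turns on fatty acid synthesis, had log2 fold changes of 0.34 in Cb and 0.15 in F/M (adjusted p = 9.6e-10 and 0.012), both under the fold limit.

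Among lipid droplet genes, 2 of 15 were upregulated in Cb (median 0.10) and 1 of 16 in F/M (median 0.03). *Plin4*, a droplet coat protein related to *Plin2*, rose by 1.21 on the log2 scale in Cb, where adjusted p = 2.9e-08, and by 0.79 in F/M (adjusted p = 0.021). *Cideb*, which helps droplets fuse, rose in Cb (0.80, adjusted p = 0.00014). None of the cholesteryl ester genes was called (0 of 2 in Cb and 0 of 3 in F/M, medians 0.25 and -0.01). Of the oxysterol enzymes and receptor, 1 of 9 was upregulated and 1 downregulated in Cb (median 0.10), and 1 of 8 was upregulated in F/M (median -0.03). *Gpr183*, the receptor for oxysterols derived from the CH25H product, rose in Cb from a mean of 0.411 to 1.93 CPM (log2 fold change 2.23, adjusted p = 9.3e-09) and in F/M from 1.18 to 2.00 CPM (0.78, adjusted p = 0.014). *Hsd3b7*, the enzyme that degrades those oxysterols, fell in Cb (-0.76, adjusted p = 0.0062) from a mean of 36.7 counts to 23.7. *Gpr183* is a gene of immune cells, and the microglial lists moved with it as given above.

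**Figure D5:**
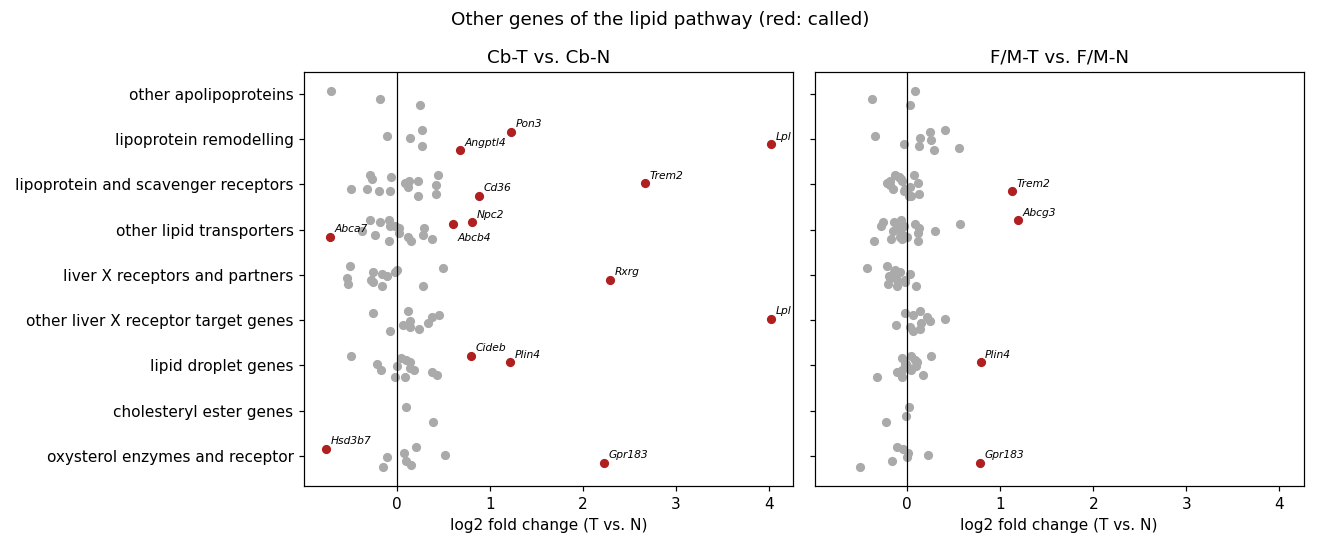
Log2 fold change of T against N (horizontal axes, shared scale) of the tested genes of 9 pathway lists in Cb (left) and F/M (right); each point is a gene, red points were called and are named. *Lpl* at 4.02 stands in both rows that list it, and fewer genes are red in F/M.

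For each gene called in either tissue, the genes with the most similar profile were sought among 13715 genes, by the root mean square distance of centred log2 CPM over the 12 libraries. For *Apoe* they were *Grn* (distance 0.067), *Csf1* (0.085) and *S100a1* (0.088). *Grn*, which encodes the lysosomal protein progranulin, had means of 45.9 (Cb-N), 85.2 (Cb-T), 55.1 (F/M-N) and 81.2 CPM (F/M-T). For *Clu* they were *Pllp* (0.064), *Il13ra1* (0.066) and *Sqstm1* (0.079), of which *Pllp* encodes a myelin protein and *Sqstm1* an autophagy receptor. For *Apoc1* they were *Fam46c* (0.18), *Cyba* (0.19) and *Ctsd* (0.21), the last a lysosomal protease. For *Ch25h* the nearest were farther away, namely *Ccl6* (0.55), *Gfap* (0.57) and *Lyz2* (0.59), where *Ccl6* and *Lyz2* are genes of myeloid cells and *Gfap* of reactive astrocytes. These distances describe the same 12 libraries that gave the changes above.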

How the data were processed

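Poly(A)-selected, single-end libraries of 50 bases were made from 12 samples with a stranded kit. The authors aligned the reads with STAR to GRCm38 (mm10), counted them per gene with featureCounts and deposited raw counts, 1 table per library; the submitters' processing notes name STAR 2.5.1b and featureCounts 1.26.1. The strand setting, the rule for reads with several alignments and the annotation release are not given in the sources used here.

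Samples were grouped by title. The rest was computed in R 4.3.3 with edgeR 4.0.16. Genes were filtered by filterByExpr (minimum count 10, minimum total 15), scaled by TMM and tested by glmQLFit and glmQLFTest with Benjamini-Hochberg adjustment over all tested genes (16382 in Cb, 16665 in F/M and 17482 in the 12-library fit, which gave the difference of changes and the tissue comparisons). The limits, FDR below 0.1 and 1.5-fold, are those of the study. CPM use the TMM factors of the 12-library fit, so a ratio of mean CPM can differ slightly from a fitted fold change. Alternatives were DESeq2 1.42.0, limma-voom (limma 3.58.1), RLE and upper-quartile factors, other filters and limits, a replicate block, 1 fit of all libraries, and leaving out each library. The script was tested on simulated data.

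The 10 genes and all lists were chosen with earlier results of these data known. The text names the 10 genes, *Tpp1*, every pathway gene called (at most 5 per list and tissue) and the 3 nearest profiles of each called gene (mean of at least 1 CPM, prior count 2). *Nr1h2*, *Nr1h3*, *Srebf1*, *Slc17a6*, *Gm26902* and the uncalled apolipoproteins were named after their values had been seen. Positions and exon lengths came from GENCODE M21 by symbol. Replicates are 3 mice per genotype, from which both tissues were taken, and floors of 3 counts cover counting error only. The remaining marker lists showed 4 of 6 border macrophage genes upregulated in Cb and 1 of 6 in F/M, and 0 in either tissue of 10 endothelial, 8 mural, 10 fibroblast and 10 neuron genes. The shares over all tested genes were 8.54% in Cb and 2.63% in F/M. Of 10 cerebellar neuron genes 0 of 10 tested were upregulated in Cb and 0 of 9 in F/M, and of 6 monocyte and neutrophil genes 0 of 4 and 0 of 3.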

Additional observations from a re-analysis of the deposited data

Results flagged for a closer look

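The change of *Ch25h* differed between the tissues by the tissue-by-genotype test (log2 difference 1.97, Cb minus F/M, SE 0.62, adjusted p = 0.021, edgeR). All 3 Cb-T libraries lay above all 3 Cb-N libraries, and the F/M groups overlapped. Without F/M-N replicate 3, which had 17 counts against 3 and 7 in the other F/M-N libraries, the difference was 1.16 (adjusted p = 0.29), and over all alternatives it ran from 1.16 to 2.38.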

How the results depend on the processing

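*Apoe*, *Apoc1*, *Clu* and *Ch25h* kept their direction and their call in Cb under every alternative that tested them, as did *Apoc1* in F/M. A mean count of at least 50 left *Apoc1* and *Ch25h* untested, so the number of the 10 genes called fell to 2 in Cb, 0 in F/M and 0 for the difference of the changes. In Cb-T against F/M-T it fell to 2 with that filter, since *Ch25h* was untested and *Apod* fell under the fold limit. Without the fold limit the numbers were 10 in Cb, 5 in F/M and 6 for the difference. They were 8 in Cb-N against F/M-N and 10 in Cb-T against F/M-T. Over all tested genes that setting called 9442 of 16382 in Cb, 4541 of 16665 in F/M and 4816 of 17482 for the difference. It called 13920 of 17482 in Cb-N against F/M-N and 13336 of 17482 in Cb-T against F/M-T. Most tested genes were thus called in Cb and in both tissue comparisons. In F/M, *Ch25h* was added to *Apoc1*, making 2, with limma-voom, no filter on low counts and 1 fit of all 12 libraries; its log2 fold change ran from 0.61 to 1.83 over the alternatives. Leaving out 1 library at a time gave 4 to 5 called genes in Cb, 1 to 2 in F/M, 0 to 1 for the difference, 3 to 5 in Cb-N against F/M-N and 3 to 5 in Cb-T against F/M-T. The sign turned for the difference of *Lcat* (-0.00212 to 0.0697 when 1 library was left out, the lowest without Cb-T replicate 3, and -7.168e-05 with a mean count of at least 50) and for *Ch25h* in Cb-N against F/M-N (0.22 without F/M-N replicate 3, -1.01 without F/M-N replicate 1). Neither had passed the test with all libraries.

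N and T libraries share replicate numbers. The deviations of same-numbered libraries correlated weakly at most (in Cb -0.046 to 0.029, in F/M -0.0017 to 0.17, the highest for replicate 2). The numbers were therefore not taken as pairs, although replicate 2 of F/M does not speak for full independence. A replicate block gave 4 called genes in Cb and 2 in F/M (*Ch25h* added, adjusted p = 0.031), and 1 for the difference. Between N and T, 2 of 6 libraries correlated best with their own number in each tissue, and between Cb and F/M 5 of 6 did among N and 4 of 6 among T.

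Over all tested genes, the calls in F/M went from 581 to 365 with DESeq2, 259 with a mean count of at least 50 and 4541 without the fold limit, and in Cb from 1835 to 897 and 9442 with the last 2 of these. For the difference of the changes they went from 1331 to 877 and 4816, for Cb-N against F/M-N from 7420 to 4990 and 13920, and for Cb-T against F/M-T from 6268 to 4151 and 13336. No other scaling moved the median log2 fold change of all genes by 0.1. Depth limits *Ch25h* and *Apoc1*, with at most 66 counts in a library. The tissue taken in Cb-T limits every Cb value, since its *Hox* and midbrain markers move with the genotype in all 3 libraries.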
